A study of Mus musculus with 3 samples.

Results

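The genes described here are 8 genes of the red cell lineage, Car1, Car2, Epor, Apoe, Blvrb, Hba-a1, Hbb-bt and Hbb-bs, taken by symbol from the 28692 gene IDs of a single-cell count table. All 8 were found. Their levels were read in every cell cluster of wild-type C57BL/6 mouse bone marrow named in the labels as Modified GMP (GMP usually stands for granulocyte-monocyte progenitor). Marrow of crushed hindlimbs had been enriched for CD117, the stem cell factor receptor Kit, then stained with antibodies and sorted. One female and 1 male library were made with the 10x Genomics 3′ v2 assay, which counts unique molecular identifiers (UMIs), 1 for each captured transcript. Both libraries are wild type, and no mutant, treated or control group enters here. The labels give neither age nor the number of mice in each library. The p-values therefore measure only how far differences between clusters varied between these 2 libraries, and that variation may be technical.

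Red cells arise from progenitors that start the carbonic anhydrase and erythropoietin receptor genes early, while globin and heme genes reach their peak only in later precursors. Erythropoietin, a kidney hormone, binds its receptor Epor and keeps committed progenitors alive through the kinase Jak2 and the factor Stat5. Car1 and Car2 are enzymes that interconvert carbon dioxide and bicarbonate, Blvrb is a biliverdin and flavin reductase abundant in red cells, and Apoe is a lipid carrier protein. Hba-a1 encodes adult alpha globin, and Hbb-bt and Hbb-bs encode the adult beta globins of mice such as C57BL/6. Globin RNA from broken red cells is also a common source of free RNA in marrow suspensions.

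The authors named 17 clusters, without a key to the abbreviations in the sources at hand. The cluster named Eryth held 41 of 4336 female and 43 of 6796 male cells, or 0.946% and 0.633%. Its sums held 579843 and 510491 UMIs. The median cell of Eryth had 12993 (female) and 10904 (male) UMIs, against 15946.5 and 12799 in Meg, 8298.5 and 7140.5 in HSCP-2, and 17137.5 and 13805 in Multi-Lin. No cell barcode of Eryth or Meg occurred in both libraries, while 45 barcodes (90 cells) did in the whole table, 3 and 2 of the cells in HSCP-2 and 8 and 3 in Multi-Lin. Without them the clusters above the reference clusters, described below, were the same, and the counts of genes passing were within 1.5 times. The clusters were made by the authors from RNA of these same cells, so a difference between clusters describes them and is no independent evidence of what they are. Levels are given as CPM, the UMIs of a gene per 1000000 UMIs summed over a library and cluster, female before male, and all intervals cover counting error only.

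The name Eryth was checked against 32 other red cell genes, of which 31 were in the count table. Their summed level was 2080 and 1902 CPM in Eryth, against 1490 and 1388 CPM in Meg, 1214 and 1149 CPM in HSCP-2, and 625 and 633 CPM in Multi-Lin. The early red cell factor Klf1 stood at 223 and 249 CPM in Eryth, against 15.4 and 26.3 CPM in Meg, 29.9 and 28.2 CPM in HSCP-2, and 8.82 and 10.9 CPM in Multi-Lin. Of the 31 genes, 7 and 5 were at 0 in Eryth, against 10 and 14 in Meg, 7 and 8 in HSCP-2, and 7 and 7 in Multi-Lin. Some genes known from later stages were among those at 0 in Eryth, and others on the list were not. Alas2, the red cell enzyme that starts heme synthesis, and Slc4a1, the band 3 anion exchanger, had no UMI in either library; both were picked out after their values were seen. Among other cell types, the 15 megakaryocyte markers summed to 210 and 215 CPM in Eryth, against 7275 and 5088 CPM in Meg. Stem and multipotent markers summed to 481 and 494 CPM in Eryth, against 2275 and 2399 CPM in HSCP-2. Of these 13 genes, 6 and 5 were at 0 in Eryth, with Flt3, Hlf, Ly6a, Procr and Esam at 0 in both libraries. Sox4 made up much of the Eryth sum, at 286 and 325 CPM, against 103 and 121 CPM in Meg and 792 and 824 CPM in HSCP-2. These genes were named after their values were seen. Markers of neutrophil granules summed to 8119 and 8694 CPM in Eryth, with none of the 10 genes at 0. That sum was close to Meg, at 8057 and 9950 CPM, and HSCP-2, at 9571 and 7627 CPM. None of the 10 genes passed against Meg, and 2 passed as lower in Eryth than in HSCP-2, where 12.0% of all genes tested did. Multi-Lin had 16847 and 15670 CPM, and 4 of the 10 genes passed as lower in Eryth than there. Macrophage markers summed to 32.8 and 45.1 CPM in Eryth, with 3 and 4 of 10 genes at 0. Monocyte markers summed to 43.1 and 60.7 CPM and lymphoid markers to 3.45 and 1.96 CPM in Eryth. The part of these other-cell markers in the values below was not tested.

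Epor is the gene that lets a progenitor respond to erythropoietin. It lies on chromosome 9 (GRCm38.p6, 21958897 to 21963576). RefSeq gives the 250 bases before its start as chr9:21963577-21963826 on the minus strand, shown because Gata1 and Klf1, described below, belong to the factor families whose motif letters were searched in it. Capitals mark GATAA, the core of sites for GATA factors, and CACCC, the core of sites for Krüppel-like factors, on either strand.
Epor: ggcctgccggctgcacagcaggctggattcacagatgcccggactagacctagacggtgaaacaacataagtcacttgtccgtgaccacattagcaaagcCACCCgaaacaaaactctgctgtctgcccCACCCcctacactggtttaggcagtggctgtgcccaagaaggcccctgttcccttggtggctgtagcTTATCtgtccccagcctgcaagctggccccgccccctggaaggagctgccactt
GATAA occurs 1 time and CACCC 2 times in it. Across 32841 such windows, 22.6% hold GATAA and 52.0% hold CACCC on either strand, so a match is a description and not a site.

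Epor was highest in Eryth, at 51.7 and 39.2 CPM. It stood at 20.2 and 21.2 CPM in Meg, at 5.12 and 4.62 CPM in HSCP-2 and at 1.63 and 1.68 CPM in Multi-Lin. Both Eryth libraries lay above both libraries of every other cluster, and the order of these 4 clusters was the same in both. In the 13 other clusters the highest value was 0.963 CPM. The receptor was thinly sampled, with 30 and 20 UMIs in Eryth, and Eryth held 25.8% of all Epor UMIs from 0.504% of all UMIs. A UMI of Epor was found in 22 of 41 and 16 of 43 Eryth cells, against 23 of 86 and 22 of 85 Meg cells.

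Car1 and Car2 are neighbours on chromosome 3 (GRCm38.p6, 14766214 to 14808365 and 14886269 to 14900770), with 77.9 kb between them. Car1 marked Eryth far more sharply than Car2. Its level was 2459 and 2278 CPM in Eryth, against 24.4 and 16.1 CPM in Meg, 113 and 65.1 CPM in HSCP-2, and 8.57 and 13.2 CPM in Multi-Lin. No other cluster came near it, and the highest of the 13 remaining clusters was 6.55 CPM. Eryth held 67.5% of the 3836 Car1 UMIs of the whole table. The other clusters held few cells with an Eryth-like level: 7 of 4295 female and 8 of 6753 male cells outside Eryth reached the lower quartile of Eryth cells in their library, 1412 and 1102 CPM. All 7 female cells and 4 of the 8 male cells were in HSCP-2, and 3 male cells were in Multi-Lin.

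Car2 was spread over the early clusters. It reached 1237 and 1220 CPM in Eryth, against 653 and 607 CPM in Meg, 868 and 1001 CPM in HSCP-2, and 146 and 151 CPM in Multi-Lin. HSCP-1, with 14 and 10 cells, had 758 and 661 CPM. The library ranges of Eryth, HSCP-2, HSCP-1, Meg and Multi-Lin did not overlap in this order of falling levels. The 95% counting intervals of HSCP-1, 614 to 927 and 519 to 830 CPM, held the Meg values, so that order is not set. Over single cells the Eryth medians were 774 and 944 CPM, against 749 and 857 CPM in HSCP-2. The 10 richest Eryth cells held 67.5% and 59.2% of the Car2 UMIs of Eryth. Eryth held 9.03% of all Car2 UMIs, and 291 female and 310 male cells outside Eryth reached its lower quartile. In Myelo-3, Car2 differed between the libraries, at 24.4 and 70.7 CPM.

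Blvrb, on chromosome 7 (GRCm38.p6, 27447978 to 27465981), was nearly equal in both Eryth libraries. It stood at 447 CPM in both Eryth libraries, against 67.0 and 85.6 CPM in Meg, 103 and 74.4 CPM in HSCP-2, and 29.4 and 34.2 CPM in Multi-Lin. Below Eryth the ranges of HSCP-2 and Meg overlapped, so their order is not set by these data. Outside these 4 clusters Blvrb lay between 10.2 and 71.8 CPM. HSCP-1 held 71.8 and 35.7 CPM. cMoP held 35.7 and 36.6 CPM and Mono 23.1 and 27.4 CPM.

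Apoe, also on chromosome 7 (19696244 to 19701310), fell off in steps. It had 1559 and 1397 CPM in Eryth, against 720 and 757 CPM in Meg, 544 and 569 CPM in HSCP-2, and 378 and 499 CPM in Multi-Lin. None of these ranges overlapped. Apoe was split within HSCP-2 and Multi-Lin. In HSCP-2, 151 of 256 and 166 of 290 cells had a UMI, whereas 41 of 41 and 42 of 43 of the deeper Eryth cells did. With every cell thinned to 4000 UMIs, the shares were 50.0% and 47.9% in HSCP-2 and 49.0% and 52.4% in Multi-Lin. In Eryth they were 95.1% and 93.0%. Eryth held 6.76% of all Apoe UMIs. Single cells carried much of the count in some other clusters, with 17 of the 25 UMIs of DC in the male library and 63 of the 260 UMIs of Gran-2 in the male library in 1 cell each. Like Car2, Apoe differed between the libraries in Myelo-3, at 36.4 and 116 CPM.

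**Figure D1:**
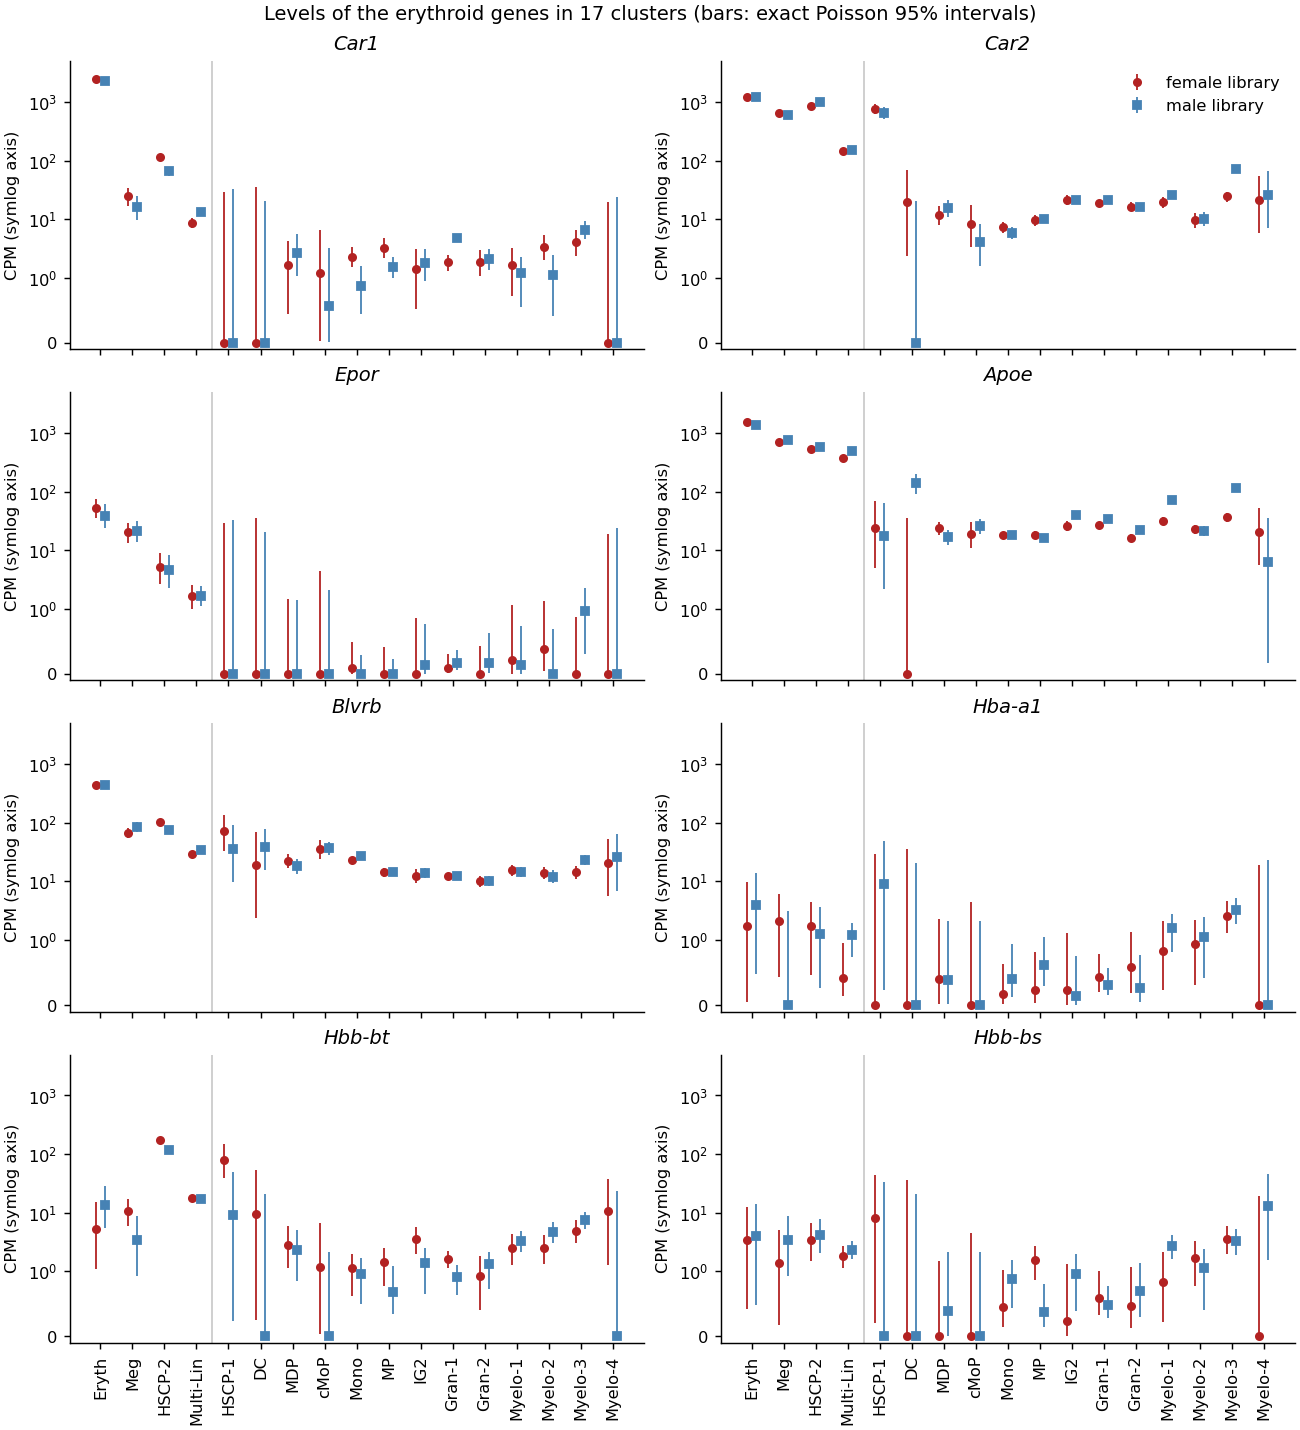
CPM of each gene (vertical, symlog axis, linear below 1) in the 17 clusters (horizontal) for the female (circles) and male (squares) library, with exact Poisson 95% intervals; Eryth, Meg, HSCP-2 and Multi-Lin stand left of the grey line. Car1, Car2, Epor, Apoe and Blvrb are highest in Eryth in both libraries, while Hbb-bt is highest in HSCP-2, at 174 and 119 CPM.

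Globins did not follow the 5 genes above. Hbb-bt and Hbb-bs are neighbours on chromosome 7 (GRCm38.p6, 103812524 to 103813923 and 103826523 to 103827928), 12.6 kb apart, and Hba-a1 lies on chromosome 11 (32283672 to 32284486). The 250 bases before the start of each are shown because the adjacent beta globin copies had very different counts; capitals mark the letters searched in the Epor window and, in addition, the box CCAAT, on either strand. The windows are chr7:103813924-103814173 and chr7:103827929-103828178 on the minus strand and chr11:32283422-32283671 on the plus strand, from RefSeq with the build GRCm38.p6.
Hbb-bt: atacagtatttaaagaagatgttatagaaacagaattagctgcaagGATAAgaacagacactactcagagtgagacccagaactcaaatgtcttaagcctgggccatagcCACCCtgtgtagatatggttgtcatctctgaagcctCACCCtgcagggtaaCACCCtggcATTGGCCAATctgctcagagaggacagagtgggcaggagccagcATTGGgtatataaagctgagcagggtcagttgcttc
Hbb-bs: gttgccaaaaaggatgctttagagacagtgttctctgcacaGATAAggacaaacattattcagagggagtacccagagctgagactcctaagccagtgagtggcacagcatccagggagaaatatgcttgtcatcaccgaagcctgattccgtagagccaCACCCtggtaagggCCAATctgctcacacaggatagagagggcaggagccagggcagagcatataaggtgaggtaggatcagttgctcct
Hba-a1: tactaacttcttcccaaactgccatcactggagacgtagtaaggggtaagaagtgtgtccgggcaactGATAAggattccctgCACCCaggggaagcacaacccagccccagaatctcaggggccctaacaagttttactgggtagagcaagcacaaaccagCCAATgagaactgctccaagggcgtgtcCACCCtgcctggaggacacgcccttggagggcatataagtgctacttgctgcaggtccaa
Each window holds GATAA 1 time. The Hbb-bt window holds CACCC 3 times and CCAAT 3 times, a pair of the CCAAT matches back to back on opposite strands, and the Hbb-bs window holds each 1 time. The windows of Hbb-bt and Hbb-bs were identical at 185 of 239 aligned bases, or 77.4%. CCAAT occurs in 33.9% of all such windows. The coding parts of globin copies are near-identical, how reads matching several copies were counted is not stated in the labels, and so the split of counts between copies is uncertain.

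Eryth had almost no adult globin. Hbb-bt had 3 and 7 UMIs there, or 5.17 and 13.7 CPM, against 15 and 4 UMIs (10.5 and 3.39 CPM) in Meg. In HSCP-2 it had 409 and 284 UMIs, or 174 and 119 CPM, and in Multi-Lin 217 and 268 UMIs, or 17.7 and 17.3 CPM. Both Eryth values lay below both HSCP-2 values and below both Multi-Lin values, and the Eryth and Meg ranges overlapped. Eryth held 0.651% of the 1537 Hbb-bt UMIs, close to its 0.504% of all UMIs. Hbb-bs had 2 and 2 UMIs in Eryth (3.45 and 3.92 CPM), against 2 and 4 in Meg, 8 and 10 in HSCP-2 (3.41 and 4.20 CPM), and 22 and 36 in Multi-Lin (1.80 and 2.32 CPM). Hba-a1 had 1 and 2 UMIs in Eryth (1.72 and 3.92 CPM), against 3 and 0 in Meg, 4 and 3 in HSCP-2 (1.71 and 1.26 CPM), and 5 and 19 in Multi-Lin (0.408 and 1.23 CPM). With so few UMIs the ratios have wide intervals: for Hba-a1 in Eryth over HSCP-2 it was 1.01 (95% interval 0.0205 to 10.2) in the female and 3.11 (0.260 to 27.1) in the male library. The second alpha globin copy Hba-a2 had 0 and 1 UMI in Eryth. The embryonic globins Hba-x and Hbb-bh1 had none in Eryth, Meg, HSCP-2 or Multi-Lin, and Hbb-y had 1 UMI in the female HSCP-2 sum and 1 in the female Multi-Lin sum.

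Counts were uneven among HSCP-2 cells. Hbb-bt had a UMI in 52 of 256 and 61 of 290 HSCP-2 cells, and 8 and 9 cells were enough to hold 50% of the counts. The richest single cell had 34 and 36 UMIs. In Multi-Lin, 95 of 686 and 106 of 1066 cells had a UMI, with at most 18 and 39. No Eryth cell had more than 2.

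Whether shares of cells stood above those of reference clusters, chosen as cells that should lack red cell transcripts, was read after every cell was reduced at random to 4000 UMIs. For Blvrb and Apoe that choice is doubtful. Before thinning, 42.0% and 40.4% of Mono cells had a Blvrb UMI and 33.8% and 25.9% an Apoe UMI. The reference clusters were Gran-2, with a median of 24311 and 19246 UMIs before thinning, and Mono, with 24366.5 and 20305. A cluster counted as above them where its exact Clopper-Pearson 95% interval lay above both of theirs in both libraries. For Car1, 97.6% and 97.7% of Eryth cells had a UMI, against 8.14% and 8.24% in Meg, 15.2% and 10.0% in HSCP-2, and 1.13% and 0.334% in Gran-2. Eryth, Meg and HSCP-2 were above the reference for Car1 and for Blvrb, and Eryth, Meg, HSCP-2 and Multi-Lin for Apoe. HSCP-1 joined those 4 for Car2. For Epor, Eryth (22.0% and 11.6%) and Meg (10.5% and 5.88%) were above it, while Gran-2 had 0 of 355 and 0 of 598 thinned cells, which allows shares of up to 0.845% and 0.502% by a limit of 3 counts, and 1.03% and 0.615% by the exact interval used for the comparison. Before thinning, 53.7% and 37.2% of Eryth cells had an Epor UMI, and HSCP-2 and Multi-Lin were then above the reference as well.

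For Hbb-bt, HSCP-2 (13.7% and 14.5%) and Multi-Lin (5.39% and 4.22%) were above Gran-2 (0.845% and 0.502%) and Mono (0.444% and 0.332%). Eryth was not, with 0 of 41 and 2 of 43 thinned cells, and 0 of 41 allows a share of up to 7.32% by a limit of 3 counts and 8.60% by the exact interval. Before thinning, 3 of 41 and 5 of 43 Eryth cells had an Hbb-bt UMI, at 7.32% and 11.6%, against 2.25% and 2.17% of the deeper Gran-2 cells. No cluster was above the reference for Hbb-bs or Hba-a1. The share of free RNA in these globin counts was not tested, and no empty droplets were analysed here.

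**Figure D2:**
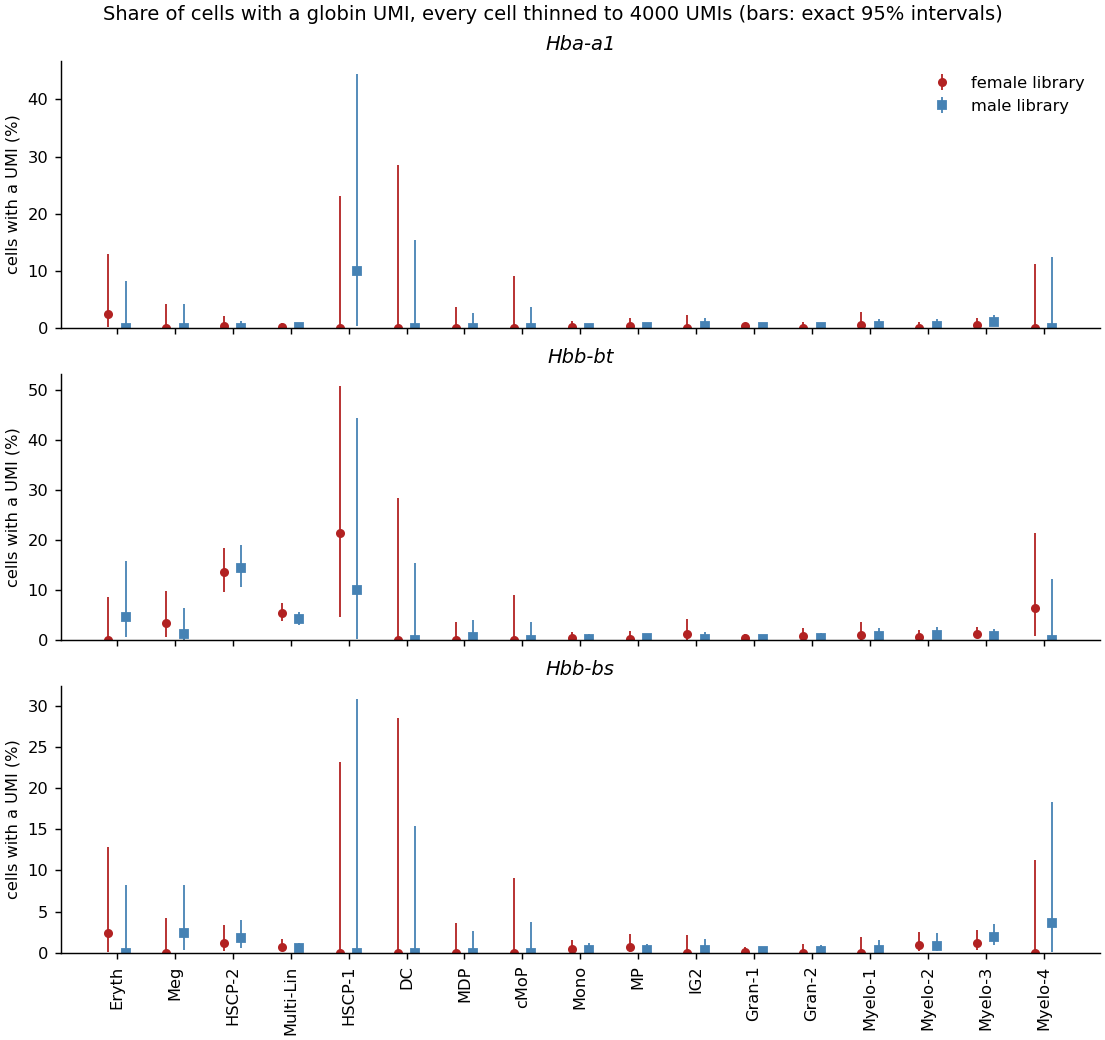
Share of cells with a UMI (vertical, percent) of Hba-a1, Hbb-bt and Hbb-bs in the 17 clusters after every cell was thinned to 4000 UMIs, with exact 95% intervals. For Hbb-bt, HSCP-2 at 13.7% and 14.5% and Multi-Lin at 5.39% and 4.22% stand above Gran-2 and Mono; wide intervals belong to clusters of few cells, such as HSCP-1 with 14 and 10.

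The observed make-up of the globin counts differed between clusters. Of the UMIs of Hbb-bt, Hbb-bs and Hba-a1 together, Hbb-bt made up 97.1% (95% interval 95.1 to 98.5) of 421 in the female and 95.6% (92.6 to 97.6) of 297 in the male HSCP-2 sum. In Multi-Lin it made up 88.9% of 244 and 83.0% of 323. In the Gran and Myelo clusters together it made up 53.7% (46.0 to 61.3) of 175 and 53.3% (47.0 to 59.6) of 255. Single cells held much of some of these counts, such as 19 of the 20 Hbb-bs UMIs of Myelo-1 and 16 of the 25 Hbb-bt UMIs of Myelo-2 in the male library, and 15 of the 21 Hbb-bt UMIs of Myelo-3 in the female library. The intervals treat UMIs as independent and are too narrow where cells are this uneven, as they also are in HSCP-2. The HSCP-2 intervals and those of the Gran and Myelo clusters did not overlap in either library. Being too narrow, they cannot decide whether 1 ratio held in every cluster, and this was not tested. In Eryth the shares were 3 of 6 UMIs (11.8% to 88.2%) and 7 of 11 (30.8% to 89.1%), intervals that hold the Gran and Myelo shares and lie below the HSCP-2 shares. Globin UMIs per cell were 0.146 and 0.256 in Eryth, against 1.64 and 1.02 in HSCP-2, and 0.0803 and 0.0743 in the Gran and Myelo clusters.

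**Figure D3:**
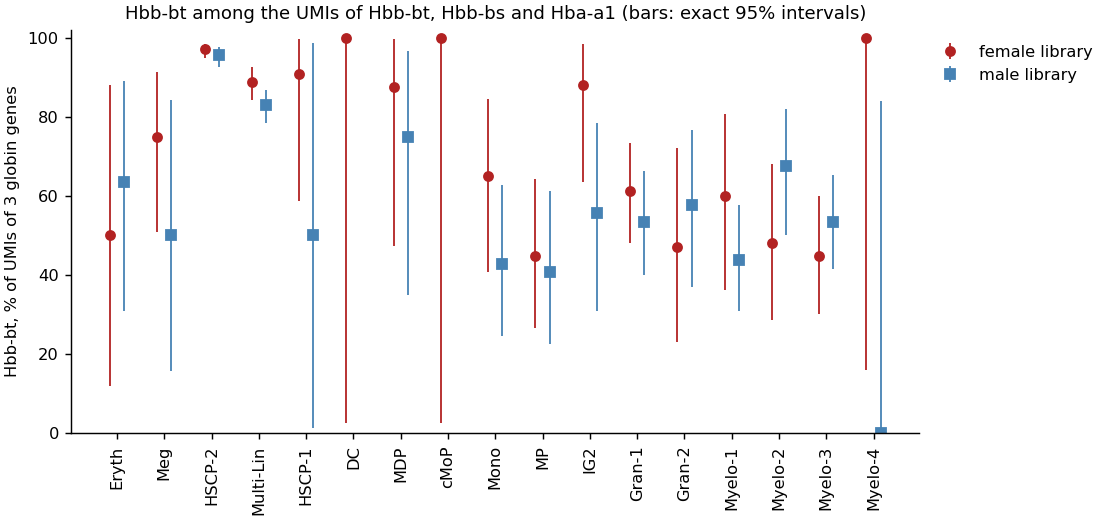
Hbb-bt as a percentage (vertical) of the UMIs of Hbb-bt, Hbb-bs and Hba-a1 in each cluster and library, with exact 95% intervals; clusters with no globin UMI in a library have no point. HSCP-2 stands at 97.1% and 95.6%, and Eryth, with 6 and 11 globin UMIs, at 50.0% and 63.6%.

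For tests, UMIs were summed per library and cluster and Eryth was compared with Meg, HSCP-2 and Multi-Lin using edgeR's quasi-likelihood test, with the library as a block. Of the 8 genes, 6 passed the filter on low counts; Hba-a1 and Hbb-bs did not and were not tested. A gene can pass that filter through the cluster where it is high, so the counts below describe the tested genes only. Hbb-bt can have passed in this way, with 3 and 7 UMIs in Eryth, against 409 and 284 in HSCP-2. Its p-values and rank below are therefore descriptions and no added support.

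Against Meg, the cluster with megakaryocyte genes, Car1, Car2, Epor, Apoe and Blvrb were higher in Eryth. That is 5 of the 6 tested, where 12.0% of the 9413 genes tested passed in either direction, 6.17% higher and 5.80% lower. Car1 differed by 6.95 ± 0.15 (log2 fold change ± SE, adjusted p = 2.01e-32) and Blvrb by 2.67 ± 0.14 (adjusted p = 2.11e-18). Epor, Apoe and Car2 were 2.38, 2.16 and 2.09 times as high in Eryth, with adjusted p of 0.00469, 2.59e-13 and 2.02e-14 from the same fit. With every cell thinned to 4000 UMIs, the Epor difference was 1.11 and its adjusted p 0.448. By library, Epor was 2.56 (95% interval 1.48 to 4.41) times as high in the female and 1.85 (0.974 to 3.47) times in the male library. Hbb-bt did not pass (0.45 ± 0.63, adjusted p = 0.754), and it was lower in Eryth in the female and higher in the male library. In the same comparison all 13 megakaryocyte markers tested were lower in Eryth.

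Against HSCP-2, 5 of the 6 tested genes were higher and 1 was lower in Eryth, where 22.6% of all genes passed, 10.7% higher and 12.0% lower. Car1 was 28.3 times as high (4.82 ± 0.11, adjusted p = 1.05e-31), Epor 9.91 times (3.31 ± 0.37, adjusted p = 3.47e-09), Blvrb 5.34 times and Apoe 2.83 times. Hbb-bt was lower in Eryth by 15.1 times (log2 fold change -3.91 ± 0.32, adjusted p = 9.27e-13), at rank 183 from the bottom of 9413 genes. Its size rests on 3 and 7 Eryth UMIs: the Eryth level was 0.0297 times that of HSCP-2 (95% interval 0.00609 to 0.0873) in the female library and 0.115 times (0.0458 to 0.240) in the male library. The Car2 difference was small, 0.48 ± 0.07 (adjusted p = 1.54e-06), and it did not pass after thinning (0.17, adjusted p = 0.301) or without the deepest cells of each cluster (0.13, adjusted p = 0.334). All 13 stem and multipotent markers tested were lower in Eryth here.

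Against Multi-Lin, the same 5 genes were higher in Eryth, where 17.4% of all genes passed, 7.22% higher and 10.1% lower. Car1 was 209 times as high (7.71 ± 0.12, adjusted p = 6.35e-39), Epor 26.8 times (4.74 ± 0.36, adjusted p = 3.96e-14), Blvrb 13.8 times, Car2 8.21 times and Apoe 3.37 times. Hbb-bt did not pass (-0.97 ± 0.46, adjusted p = 0.158). Of the 8 basophil and mast cell markers tested, 7 were lower in Eryth, whose sums for them were 88.0 and 82.3 CPM, against 2224 and 2797 CPM in Multi-Lin.

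**Figure D4:**
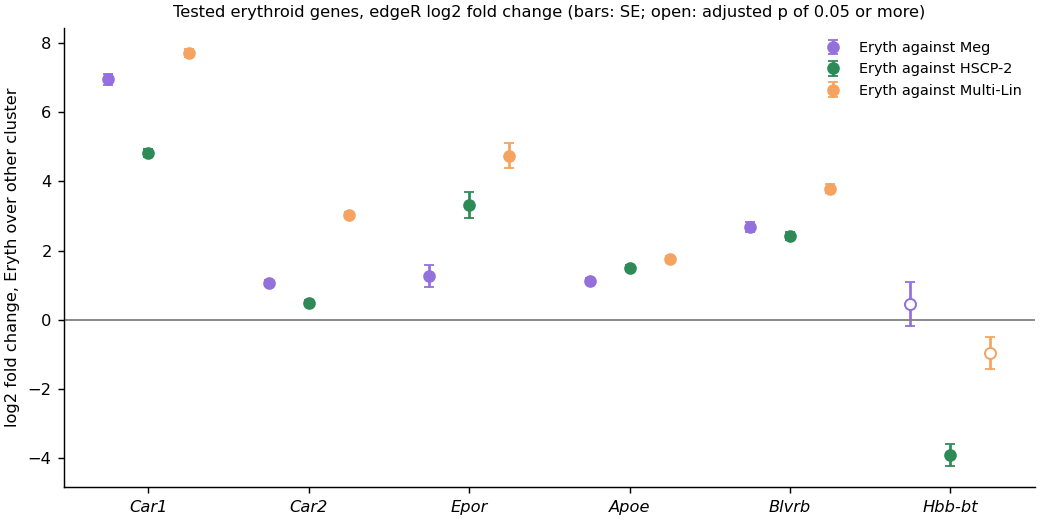
Log2 fold change (vertical) of Eryth over Meg, HSCP-2 and Multi-Lin for the 6 tested genes (horizontal), from edgeR fits of 8 library-by-cluster sums, with SE bars; open points had an adjusted p of 0.05 or more. Car1 has the highest points, 6.95, 4.82 and 7.71, and Hbb-bt against HSCP-2 the lowest, -3.91.

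Other genes of the same pathways moved in part. Of 22 red cell genes tested from the list of 32, 13 were higher and 1 lower in Eryth than in Meg, 18 higher and 1 lower than in HSCP-2, and 19 higher and 0 lower than in Multi-Lin. Over all genes tested, 6.17% were higher and 5.80% lower than in Meg, 10.7% and 12.0% than in HSCP-2, and 7.22% and 10.1% than in Multi-Lin. The median log2 fold changes of the 22 genes were 0.75, 2.24 and 4.04, where the medians over all genes tested were -0.02, -0.03 and -0.01. Gata1, the main red cell GATA factor, was higher in Eryth by 0.87 ± 0.16 against Meg, by 2.01 ± 0.17 against HSCP-2 and by 2.80 ± 0.16 against Multi-Lin (adjusted p of 0.000144, 3.48e-12 and 1.33e-17). The water channel Aqp1 was 4.26, 12.2 and 88.7 times as high, and Klf1 12.4, 8.62 and 23.5 times. Lmo2, an adaptor of the GATA and Tal1 complex, was the single gene that was lower, at 355 and 294 CPM in Eryth, against 586 and 512 CPM in Meg and 688 and 692 CPM in HSCP-2. Nfe2 did not pass in any of the 3 comparisons (adjusted p of 0.599, 0.535 and 0.376).

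Of the 14 genes of heme synthesis and heme or bilirubin breakdown, 5 were higher and 0 lower in Eryth than in Meg, 7 higher and 1 lower than in HSCP-2, and 5 higher and 2 lower than in Multi-Lin. The share of all genes that was higher was 6.17%, 10.7% and 7.22% in these comparisons, and the share that was lower 5.80%, 12.0% and 10.1%. Alad, the second enzyme of heme synthesis, had 133 and 190 CPM in Eryth, against 69.1 and 72.0 CPM in Meg, 63.1 and 60.1 CPM in HSCP-2, and 60.3 and 58.6 CPM in Multi-Lin, and passed in all 3 comparisons. Urod and Cpox, later enzymes of the pathway, were also higher in all 3. Hmox2, the constitutive heme oxygenase, was lower than in HSCP-2 and Multi-Lin. Blvra, the other biliverdin reductase, differed less than Blvrb: it was 1.62 times as high as in HSCP-2 (adjusted p = 0.0254) and did not pass against Meg (0.544) or Multi-Lin (0.235).

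The list for erythropoietin receptor signalling held 14 genes, among them Kit and Igf1r, which are receptors for other factors. Of these 14 genes, 2 were higher and 1 lower in Eryth than in Meg. Against HSCP-2, 1 was higher and 6 lower, and against Multi-Lin 2 were higher and 3 lower. The 2 genes higher than in Meg were Igf1r and Kit, and the 1 higher than in HSCP-2 was Igf1r. With 6.17%, 10.7% and 7.22% of all genes higher and 5.80%, 12.0% and 10.1% lower, counts of 1 to 3 of 14 genes are too few to set apart from these shares. Igf1r, a growth factor receptor, was higher in all 3 comparisons, by 1.84, 1.54 and 1.65 times. Stat5a had 65.5 and 43.1 CPM in Eryth, against 28.8 and 34.1 CPM in Multi-Lin (adjusted p = 0.0119), and did not pass against Meg or HSCP-2. Pim1, a kinase gene induced by Stat5, was lower in Eryth, at 55.2 and 52.9 CPM, than in HSCP-2, at 252 and 160 CPM. Bcl2l1, a survival gene, had no UMI in Eryth, against 21 and 26 in Meg, 32 and 23 in HSCP-2, and 101 and 131 in Multi-Lin, and was lower in all 3 comparisons; it was the only gene of this group lower than in Meg and was chosen after its values were seen.

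The other 14 carbonic anhydrase genes were nearly silent. They summed to 22.4 and 29.4 CPM in Eryth, with 10 of 14 at 0 in each library, and 3 could be tested. None passed as higher in Eryth. Car13 had 8.62 and 9.79 CPM in Eryth, against 4.19 and 4.24 CPM in Meg, 2.99 and 7.14 CPM in HSCP-2, and 3.59 and 4.20 CPM in Multi-Lin (adjusted p of 0.310, 0.298 and 0.150). Car3 was lower than in HSCP-2 and Multi-Lin by 3.04 and 3.27 times (adjusted p of 0.0101 and 0.00381).

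Across all 34 library-by-cluster sums, likeness to each gene was measured as Pearson's r of log2(CPM + 1) and is given as a description, since the clusters of 1 library share that library and the sums differ in depth. Car1 was most like Klf1 (r = 0.967), followed by Gm15915 and Trib2, and Epor was most like Samd14 (0.986), Epdr1 and Mfsd2b. For Apoe the nearest genes were Sdsl, Gse1 and Icam4, and for Blvrb Abcb4, Eif1 and Trib2. Car2 and Hbb-bt shared a neighbour, with Rhoh at 0.940 and 0.819, and the r between Car2 and Hbb-bt was 0.767. Within the group, Car1 and Epor were at 0.901 while Car1 and Hbb-bt were at 0.430. Hba-a1 and Hbb-bs, the sparsest genes, reached 0.689 and 0.700 at most.

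Within Eryth the 5 non-globin genes varied from cell to cell. All 5 were detected in 22 of 41 and 16 of 43 cells, and 4 of 5 in 18 and 25 cells. Car1 ranged from 0 to 6809 CPM in the female cells (median 1833) and from 173 to 6012 CPM in the male cells (median 1771). Apoe ranged from 135 to 6748 CPM (median 1431) and from 0 to 7297 CPM (median 1288). Cells high in Car1 tended to be low in Apoe in the male library, with a Spearman rho of -0.59 over 43 cells. In the female library this was weak, at -0.23 over 41 cells. Car1 and Blvrb went together (0.42 and 0.35), as did Car2 and Blvrb (0.45 and 0.33), whereas Car1 and Car2 were only weakly related (0.17 and 0.20). The summed megakaryocyte markers fell with rising Car1 (-0.53 and -0.45). Apoe followed Gata2, a factor of earlier progenitors (0.38 and 0.55). Depth moved with these values too, since the UMI total of a cell had a rho of 0.35 and 0.24 with Car1 and of -0.35 and -0.38 with Apoe, and its part in them was not tested. All these points share a cluster and a library, and the values come with no test.

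**Figure D5:**
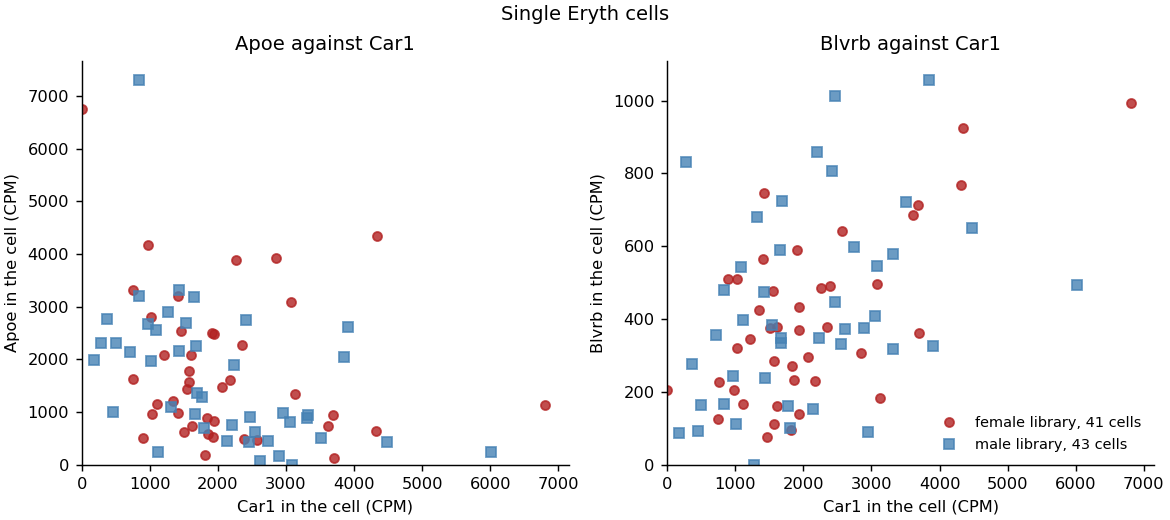
Each point is 1 Eryth cell of the female (41 cells) or male (43 cells) library, with its Car1 level (horizontal, CPM) against its Apoe (left) or Blvrb (right) level (vertical, CPM). Apoe runs down with Car1, weakly in the female library (rho of -0.23) and more strongly in the male one (-0.59), and Blvrb runs up, with 0.42 and 0.35.

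At the surface, the CD117 antibody count had a median of 445 and 224 per Eryth cell, against 293 and 240 per Meg cell, 369.5 and 263 per HSCP-2 cell, and 357 and 206 per Multi-Lin cell. Eryth was the highest of these 4 in the female library and stood below HSCP-2 and Meg in the male one.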

How the data were processed

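Several kinds of values were used, all deposited by the authors: whole-number UMI counts per gene and cell, not normalized, and whole-number antibody counts per cell, of which CD117 was read. The authors also deposited the cluster of each cell, and these 17 names were used as given. Per the submitters' processing notes, Cell Ranger 2.1.0 and mm10 were used; the handling of reads that match several genes, and of doublets, is not stated in the labels or headers, and no doublet caller was run. The deposited cells held 91448433 UMIs (4336 female cells, median 21202) and 124967351 UMIs (6796 male cells, median 18687).

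Counts were summed per library and cluster. The 8 sums of Eryth, Meg, HSCP-2 and Multi-Lin were compared by the quasi-likelihood test of edgeR 4.0.16 (R 4.3.3) after TMM scaling, with low genes removed by filterByExpr on the clusters and with the library as a block, and with Benjamini-Hochberg adjustment over 9413 genes and a threshold of 0.05. The block pairs clusters that come from the same library. With 2 libraries, precision is set by their number as well as by depth. Shares of cells were read after thinning each cell to 4000 UMIs (seed 7), with exact 95% intervals; the floor for a count of 0 was 3 counts. Named list genes were the 6 with the highest mean CPM in Eryth per list, and 3 most alike genes were named per member among genes of at least 20 CPM. The members and lists were chosen with earlier results of these data known. The tests were tried on simulated data. Alternatives were DESeq2 1.42.0, other scaling, filters, fits and cell sets. The third sample, the antibody library, entered no gene test. One gene of the red cell list is counted in the list's totals and is not reported here by itself.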

Additional observations from a re-analysis of the deposited data

Results flagged for a closer look

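In 3 cases the difference between Eryth and another cluster had opposite signs in the female and male library. None of these differences between the libraries was tested, and the counts behind the Eryth values are 1 to 7 UMIs. For Hba-a1, Eryth minus Meg was -0.369 CPM in the female and 3.92 CPM in the male library. For Hbb-bt, Eryth minus Meg was -5.30 CPM in the female and 10.3 CPM in the male library. For Hbb-bs, Eryth minus HSCP-2 was 0.0371 CPM in the female and -0.285 CPM in the male library.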

How the results depend on the processing

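The block pairs clusters of the same library; with no replicate block, 906, 1922 and 1422 genes passed against Meg, HSCP-2 and Multi-Lin, where 1127, 2132 and 1635 did with it, and no call of a member changed. DESeq2 called 714 genes against Meg and 1083 against Multi-Lin. Thinning to 4000 UMIs per cell, which tests 6964 genes, left 369, 670 and 624. Without TMM scaling the share of passing genes that were higher in Eryth was 36.1% against Meg and 36.2% against HSCP-2, where it was 51.6% and 47.2% with it, and the median log2 fold change of all genes was -0.12 in both. Of the log2 fold changes of members under alternatives, 158 kept their direction and side of the threshold and 3 did not pass: Epor against Meg after thinning (1.11), and Car2 against HSCP-2 after thinning (0.17) and without the deepest cells (0.13). Of the member levels in Eryth under alternatives with both libraries kept, 22 moved and 18 did not. Of the shares in Eryth, 8 moved and 16 did not. For all 5 non-globin genes the median over Eryth cells lay below the level from sums in both libraries. For Car1 it was 1833 and 1771 CPM, against 2459 and 2278 CPM, and for Car2 774 and 944 CPM, against 1237 and 1220 CPM. For Epor the level in Eryth was 51.7 and 39.2 CPM from sums, against 35.7 and 0 CPM as the median over cells of each library. Only 22 of 41 and 16 of 43 cells had an Epor UMI, so the median male cell had none. Counting shares without thinning put Epor above the reference in 4 clusters in place of 2, added Gran-1 for Apoe and dropped HSCP-2 for Blvrb. With Gran-1 as the reference, Blvrb was above in 5 clusters in place of 3, cMoP among them, and Epor in 3. Leaving out 1 library leaves no test. Of the 36 unscaled CPM ratios of members from a single library, 29 differed from the value over both by less than the spread between libraries and 7 did not, in the range of 0.29 to 3.08 on the log2 scale and all above 0. Depth limits Hba-a1 and Hbb-bs, with at most 2 UMIs in each Eryth sum.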

Other observations

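HSCP-2 cells with an Hbb-bt UMI (52 female and 61 male) were set beside those without (204 and 229) after the values were seen, as a description with no test. Apoe stood at 166 and 253 CPM in the cells with Hbb-bt, against 651 and 675 CPM in those without. Car1 stood at 46.4 and 8.43 CPM, against 132 and 84.0 CPM, and Gata1 at 11.6 and 13.5 CPM, against 51.4 and 43.1 CPM. Of 8 stem and multipotent markers read, from the list of 13, 6 were higher in the cells with Hbb-bt in both libraries. The counting intervals of Hlf, Ly6a and Cd34 lay apart in the female library only, and those of Procr in the male library only. For Mecom and Flt3 they overlapped in both libraries. No share over all genes was read for this split, so the count of 6 has no background to be set against. Hlf, a stem cell factor, was at 145 and 106 CPM in the cells with Hbb-bt, against 76.1 and 86.2 CPM in those without, and Procr at 44.4 and 62.4 CPM, against 29.0 and 33.6 CPM. Meis1 was at 122 and 152 CPM, against 124 and 154 CPM, and Sox4 was lower, at 655 and 637 CPM, against 830 and 886 CPM. Car2 was at 1022 and 1018 CPM, against 825 and 995 CPM. The cells with Hbb-bt were deeper, with medians of 8785.5 and 8361 UMIs, against 8184.5 and 6930, and the part of depth in these values was not tested. In Multi-Lin, cells with Hbb-bt had more Car2, at 223 and 285 CPM, against 131 and 135 CPM, and less Apoe, at 197 and 310 CPM, against 412 and 522 CPM. Car1 ran in opposite directions there, at 25.5 and 1.19 CPM, against 5.42 and 14.6 CPM. These values rest on 49 and 2 UMIs, against 56 and 202. A single cell held 46 of the 105 female and another 61 of the 204 male Car1 UMIs of Multi-Lin, so the directions can hang on 1 cell.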
